A study of Homo sapiens with 4 samples.

Results

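The mitochondrial ribosomal protein genes were taken as all rows of the deposited gene table whose symbol begins with MRPL or MRPS followed by a number, with an optional letter A, B or C. This rule found 77 of the 26364 genes, called the members here, 48 named for the large and 29 for the small subunit. They were described in Ishikawa cells, a human endometrial adenocarcinoma line, in which ESR1, encoding estrogen receptor alpha, carried the Y537S mutation. The labels give 2 mutant clones, each kept in hormone-deprived medium and treated for 8 h with 10 nM estradiol (E2) or with its vehicle, 0.1% DMSO. This gave 4 poly(A)-selected libraries, 2 with DMSO and 2 with E2, and all 4 carried the mutation, so no comparison here is with wild-type receptor. Each clone is a single line with 1 library per treatment. The deposited columns name the lines A4 and B212, and which of these is clone 1 or clone 2 is not given in the labels.

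The mitochondrial ribosome translates the few messenger RNAs encoded by mitochondrial DNA, all of which make subunits of the oxidative phosphorylation complexes. Its ribosomal RNAs come from mitochondrial DNA, while every protein is encoded in the nucleus, made in the cytosol and imported. Some of these proteins have bacterial counterparts and the others are particular to mitochondria. By this division, written from general knowledge, 30 members are conserved and 20 mitochondria-specific proteins of the large subunit, and 16 are conserved and 10 mitochondria-specific proteins of the small subunit. MRPS30 and MRPS18A, despite their names, sit in the large subunit and were counted there. MRPS36 is a component of the 2-oxoglutarate dehydrogenase complex and was counted in neither.

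The libraries held 71575816 to 85222856 counts. Epithelial markers (EPCAM, CDH1, KRT8, KRT18 and KRT19) summed to 2121 and 2027 CPM (counts scaled to a common library size) in A4 (DMSO, E2). In B212 they summed to 2637 and 2406 CPM. All 4 Ishikawa markers, ESR1, PGR, ALPP and ALPL, were counted in every library, ALPL with at most 60 counts. PGR was at 51.6 and 72.1 CPM in A4 and at 5.6 and 15.6 CPM in B212. ALPP was at 20.8 and 24.9 CPM in A4 and at 8.2 and 14.5 CPM in B212. Leukocyte markers summed to at most 2.45 CPM and endothelial markers to at most 4.499 CPM, with CD3E and PECAM1 at 0 in all libraries. Stromal markers summed to 130.4 and 94.2 CPM in A4 (DMSO, E2) and to 43.0 and 35.1 CPM in B212, nearly all of it COL1A1, with at most 1 count of DCN and 5 of LUM. The stromal sum was lower with E2 and lower in B212, and the epithelial sum was lower with E2 and higher in B212. The part of either in the results below was not tested. The bulk values cannot tell fewer cells of a kind from less RNA per cell.

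All but 2 members were expressed well above the count minimum. The 77 genes took 0.539% of all counts in A4 with DMSO and 0.641% with E2, a ratio of 1.19. In B212 they took 0.474% with DMSO and 0.517% with E2, a ratio of 1.09. Their share was thus higher with E2 in both lines, and both B212 libraries lay below both A4 libraries. Large subunit members had 1.95 and 2.00 times the counts of small subunit members in A4, and 1.79 times in both B212 libraries.

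Levels per length differed about 40-fold between members. On the scale of CPM per kilobase of the coding transcript of median length, the median member stood at 53.6 in A4 with DMSO, 64.5 in A4 with E2, 43.8 in B212 with DMSO and 47.8 in B212 with E2. MRPL51, a mitochondria-specific large subunit protein, was the highest with a mean of 514 over the 4 libraries. MRPL3, a conserved protein whose bacterial counterpart reaches towards the peptidyl transferase center, followed with 282, and MRPL30 with 260. Their neighbours at the other end were MRPL50 with 12.8, MRPS31 with 15.6 and MRPL22, a conserved protein of the polypeptide exit tunnel, with 16.9. The order depends on the transcript: per kilobase of the longest transcript the 3 highest were MRPL51 (209), MRPS15 (154) and MRPL3 (140), and MRPL30 stood at 56.2. Across the 75 tested members, log2 levels per length in the A4 and B212 DMSO libraries had a Pearson r of 0.982, a description in which both lines share the gene lengths.

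MRPS18B and MRPS24 were under the filter. MRPS18B, a small subunit protein, had 0 counts in 3 libraries and 1 in B212 with DMSO. MRPS24 had 1 or 2 counts in each library. Neither was tested, and 75 members were. MRPS18C, a paralog of MRPS18B, had 13.9 CPM in A4 with DMSO and 20.6 with E2, against 11.4 and 12.1 CPM in B212, and MRPS18A had 31.2 to 39.0 CPM in the 4 libraries.

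The members' values were slightly higher with E2 as a group, in both lines. The question was whether E2 changes their expression in cells with the mutant receptor. In the comparison of 2 E2 with 2 DMSO libraries without regard to the line, the median log2 fold change over the 75 members was 0.21, against -0.0081 over all 15599 genes tested. No member was called (adjusted p under 0.05), and neither was any other gene (0% of those tested) by edgeR's quasi-likelihood test. Before adjustment, 1 member, MRPL33, and 150 of all genes were under 0.05 in the same test, and DESeq2 and limma-voom also called 0 members. For 19 of the 75 members both E2 libraries lay above both DMSO libraries, against 13.2% of all genes tested. The reverse was seen for 0 members and 11.8% of all genes.

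Pairing the libraries of each line brought out individual genes. With the line as a block, edgeR's quasi-likelihood test with Benjamini-Hochberg adjustment called 28 of the 75 members (37.3%) higher with E2, where 6.13% of all genes were called higher. None was called lower, where 3.44% of all genes were. The median log2 fold change was again 0.21, the range was -0.07 to 0.49, and 70 members had a positive value. By class, 12 of 30 conserved and 8 of 20 mitochondria-specific large subunit members rose, as did 5 of 15 conserved and 2 of 9 mitochondria-specific small subunit members, and MRPS36. With DESeq2's size factors in place of TMM scaling 13 members were called and with DESeq2 itself 11, all among the 28. The share of all genes called under these 2 settings is not given here. The pairing rests on the column names, and the blocked test leaves 1 residual degree of freedom, with the spread borrowed across genes. Nothing beyond the clone labels states that the libraries came from separate cultures, so p-values measure the spread between these libraries only.

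**Figure D1:**
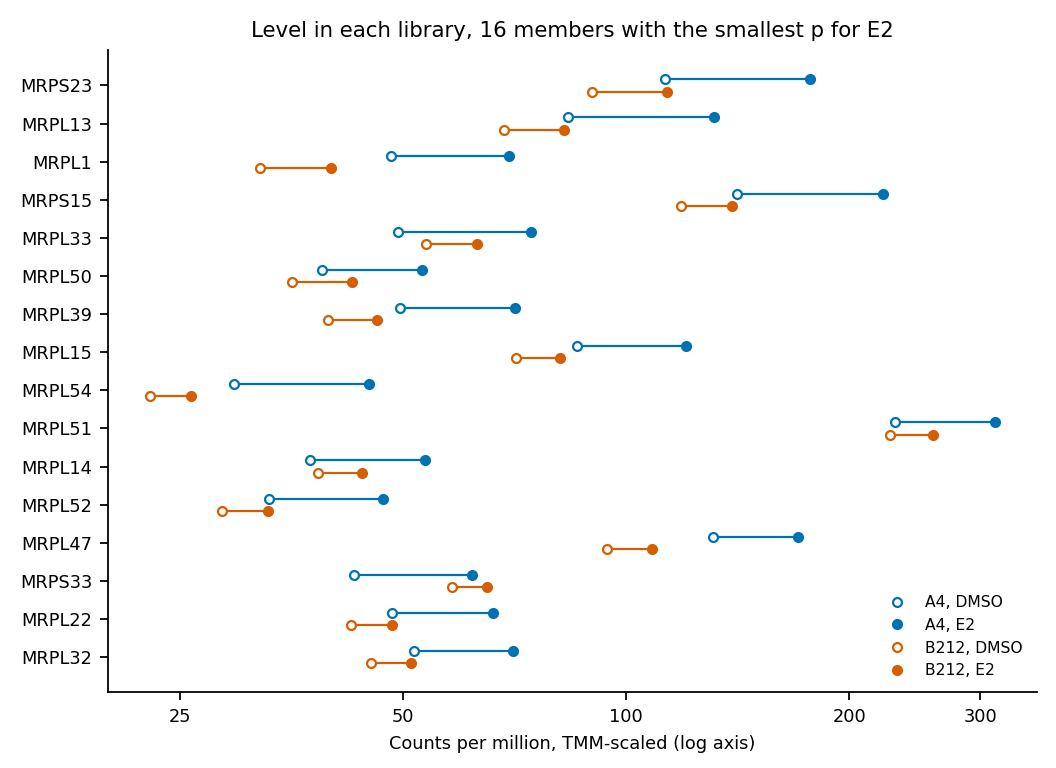
TMM-scaled CPM on a log axis in each library for the 16 members with the smallest p for E2 in the blocked fit; open points are DMSO, filled points E2, blue A4 and orange B212, and a line joins the libraries of a line. Every filled point lies to the right of its open point, and the step is wider in A4: MRPS23 went from 113 to 177 CPM in A4 and from 89.8 to 114 CPM in B212.

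Among small subunit members, MRPS23 had the smallest p. This mitochondria-specific protein was at 113 CPM with DMSO and 177 CPM with E2 in A4, and at 89.8 and 114 CPM in B212. Both E2 libraries lay above both DMSO libraries. Within A4 its log2 change was 0.65, with a 95% interval for counting error alone of 0.61 to 0.69, and within B212 it was 0.34 (0.29 to 0.38). The blocked log2 fold change was 0.49 ± 0.08 (SE; edgeR's quasi-likelihood test, adjusted p = 9.6e-04). MRPS15, a conserved protein that binds the small ribosomal RNA, went from 141 to 222 CPM in A4 and from 118 to 139 CPM in B212, with a log2 fold change of 0.44 ± 0.08 (adjusted p = 0.0035 by the same edgeR test). Its B212 library with E2 stayed just under its A4 library with DMSO, so the treatment groups overlapped. MRPS33, another mitochondria-specific protein, went from 42.9 to 62.0 CPM in A4 and from 58.2 to 64.9 CPM in B212 (log2 0.34, edgeR adjusted p = 0.016). Unlike the others named so far, it was higher in B212 than in A4 at both treatments.

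MRPL13, a conserved large subunit protein, had the second smallest p. It was at 83.5 and 131.5 CPM in A4 (DMSO, E2) and at 68.4 and 82.6 CPM in B212, and the log2 fold change was 0.47 ± 0.08 (edgeR, adjusted p = 0.0022). MRPL1, which forms the mobile stalk beside the exit site for transfer RNA, was at 48.1 and 69.6 CPM in A4 and at 32.1 and 40.04 CPM in B212, with a log2 fold change of 0.43 ± 0.08 (edgeR, adjusted p = 0.0032). Both lines had the higher level with E2, and for both genes the B212 library with E2 was below the A4 library with DMSO. MRPL33, a short conserved protein, was at 49.3 and 74.4 CPM in A4 and at 53.8 and 62.9 CPM in B212 (log2 0.41, edgeR adjusted p = 0.0057). Here B212 was the higher line with DMSO and A4 with E2, and the treatment groups did not overlap.

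Of the other conserved large subunit members among the 16, MRPL15 rose from 85.7 to 120.3 CPM in A4 and from 71.0 to 81.5 CPM in B212. MRPL14, which lies at the interface with the small subunit, rose from 37.5 to 53.6 CPM in A4 and from 38.4 to 44.0 CPM in B212. MRPL22 rose from 48.3 to 66.1 CPM and from 42.6 to 48.4 CPM, in the same order. These steps correspond to log2 fold changes of 0.34, 0.36 and 0.32, with edgeR adjusted p-values of 0.0091, 0.013 and 0.017. MRPL32, which is matured by a protease of the mitochondrial inner membrane, rose from 51.8 to 70.3 CPM in A4 and from 45.3 to 51.3 CPM in B212 (log2 0.31, edgeR adjusted p = 0.019). MRPL47 was 131 and 170 CPM in A4 against 94.4 and 108 CPM in B212 (log2 0.29, edgeR adjusted p = 0.016), with A4 above B212 at both treatments.

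The mitochondria-specific large subunit members of this group moved by similar amounts. MRPL50, the lowest per length, rose from 38.9 to 53.0 CPM in A4 and from 35.4 to 42.7 CPM in B212 (log2 0.36, edgeR adjusted p = 0.0087). MRPL51, the highest per length, rose from 231 to 314 CPM in A4 and from 227 to 260 CPM in B212 (log2 0.32, edgeR adjusted p = 0.012). For both, the E2 and DMSO libraries did not overlap. MRPL39 was at 49.5 and 70.8 CPM in A4 and at 39.6 and 46.2 CPM in B212 (log2 0.37, edgeR adjusted p = 0.0088). MRPL52 was at 33.0 and 47.0 CPM in A4 and at 28.5 and 32.9 CPM in B212 (log2 0.36, edgeR adjusted p = 0.013). MRPL54 was at 29.6 and 45.0 CPM in A4 and at 22.8 and 25.9 CPM in B212 (log2 0.40, edgeR adjusted p = 0.012). In these 3 genes A4 had both the higher level and the wider step.

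The remaining 12 called members were MRPL18, MRPL20, MRPL21, MRPL36, MRPL42, MRPL48, MRPL49, MRPS7, MRPS10, MRPS12, MRPS21 and MRPS36. Their log2 fold changes were 0.23 to 0.35, with edgeR adjusted p-values of 0.021 to 0.049, close to the threshold. MRPS36 was at 36.6 and 47.1 CPM in A4 and at 32.9 and 37.9 CPM in B212. Just past the threshold lay MRPS18C (log2 0.34, edgeR adjusted p = 0.053) and MRPL46 (0.27, edgeR adjusted p = 0.058).

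The other 47 tested members were not called, with log2 fold changes of -0.07 to 0.34 and a median of 0.13. MRPL12, the stalk protein that recruits translation factors, was at 130 and 142 CPM in A4 and at 79.8 and 84.2 CPM in B212 (log2 0.10, edgeR adjusted p = 0.37). MRPL3 was at 249 and 297 CPM in A4 and at 194 and 218 CPM in B212 (log2 0.21, edgeR adjusted p = 0.064). Their values were higher with E2 in both lines without passing the test. MRPS30 had a log2 fold change of 0.15 (edgeR adjusted p = 0.26). MRPS26, MRPL28 and MRPS34 were nearest to 0: MRPS26 was at 39.9 and 39.3 CPM in A4 and at 30.4 and 30.9 CPM in B212.

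Both lines showed the shift, and it was wider in A4. Within A4 the median log2 change over the 75 members was 0.29, with a middle range (quartiles) of 0.16 to 0.40, against a median of -0.02 over all genes. Within B212 it was 0.13, with quartiles of 0.05 and 0.19, against -0.00064 over all genes. Higher values with E2 in both lines were seen for 65 members and lower values in both for 2, MRPS2 and MRPL37, while 8 had opposite signs. Over all 15599 genes the same counts were 5190, 5743 and 4645. The change was larger in A4 for 66 of 75 members, including all 28 called ones, and for 7657 of all 15599 genes. The difference between lines was not tested, since each line had 1 library per treatment. The changes in the lines share no library. Across the 75 members the Pearson r between them was 0.73 and the Spearman rho 0.72. Beside this, r was 0.28 over all genes tested and 0.55 over the 11928 genes that had 100 counts or more in each of the 4 libraries.

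**Figure D2:**
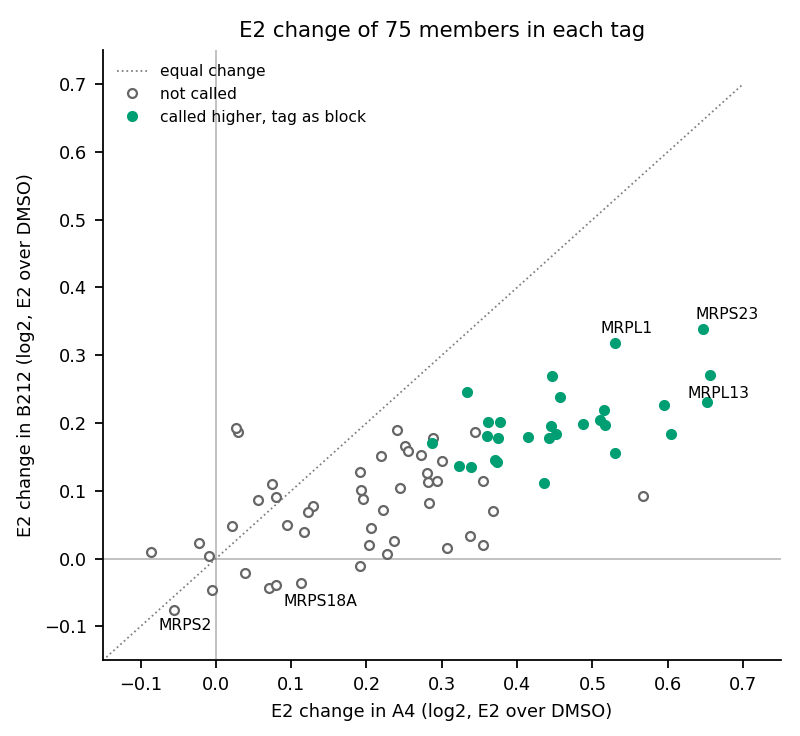
E2 change (log2 of E2 over DMSO) in A4 against that in B212 for the 75 tested members; filled points are the 28 called higher in the blocked fit and the dotted line marks equal change. Most points lie to the right of the vertical zero and below the dotted line: the change was larger in A4 for 66 of 75.

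Transcript length went with the E2 change over all genes, as did GC content and, less closely, length among the members. The coding transcript of median length had a median of 922 bases over the members and 1518 over all genes, and the longest transcript 1547 against 3292 bases. Across 14584 genes with a length, the blocked E2 change and log2 length of the longest transcript had a Spearman rho of -0.28. Among the 75 members it was -0.16 (Pearson r -0.080). With the coding transcript of median length rho was -0.20 over all genes and -0.25 among the members (Pearson r -0.22). On that transcript called members had a median GC content of 46.7% and those not called 54.0%. Across the 75 members E2 change and its GC content had a Pearson r of -0.41. On the longest transcript the GC medians were 46.0% and 50.7%, and r was -0.35. When a smooth trend of each library on length and GC content of the longest transcript was removed, 6 members were called higher, MRPS15, MRPS23, MRPS33, MRPS11, MRPL13 and MRPL42, against 2.95% of all genes, and the members' median was 0.098. The longest transcript was more than 2 times the median one for 23 members. With the coding transcript of median length instead, a choice made after the data were seen, 21 members were called higher against 4.48% of all genes, with a median of 0.16. MRPL42 was not among them (log2 0.090, edgeR adjusted p = 0.43). Its longest transcript has 15582 bases and its coding transcript of median length 920. MRPL13, MRPS15 and MRPS23 were called under every blocked setting tried. Without the trend removed, 8 members had an adjusted p under 0.01, and the share of all genes under 0.01 is not given here. The part of length and GC content in the E2 change cannot be told apart here from that of treatment.

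**Figure D3:**
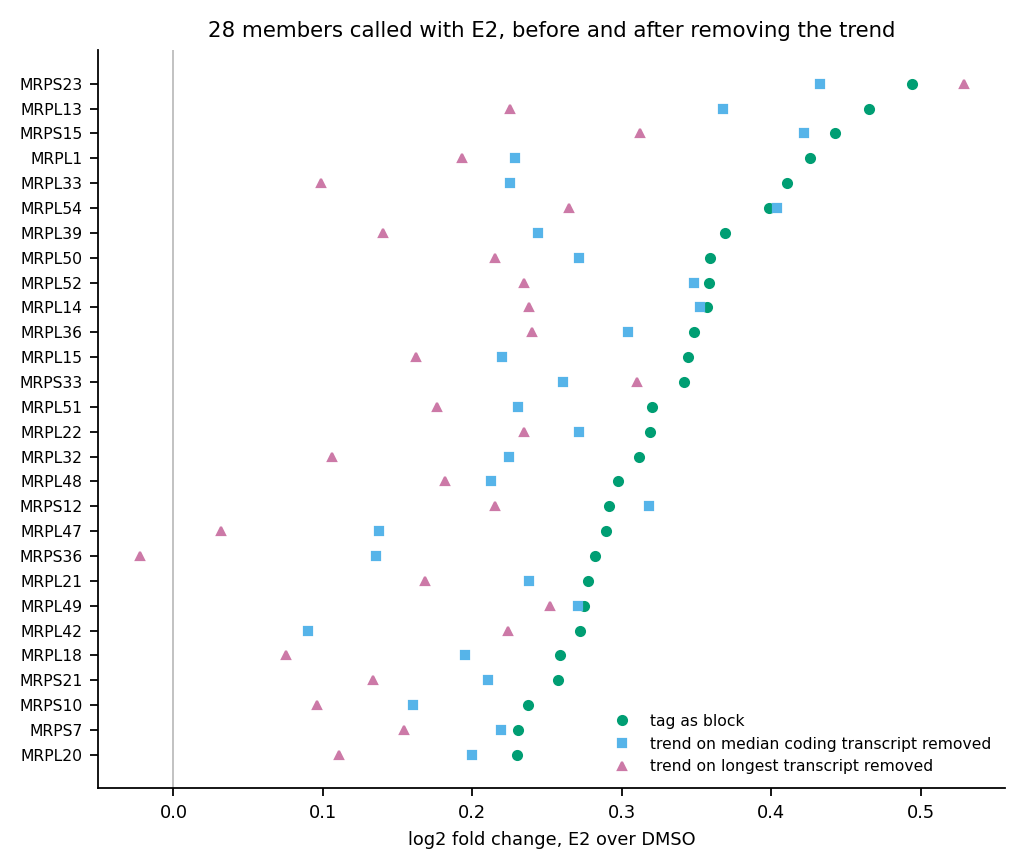
Blocked log2 fold change (E2 over DMSO) of the 28 called members as measured (circles) and after removing each library's trend on length and GC content, with the median coding transcript (squares) or the longest transcript (triangles). With the longest transcript all values but that of MRPS23 (0.53) are smaller than as measured, down to -0.02 for MRPS36.

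**Figure D4:**
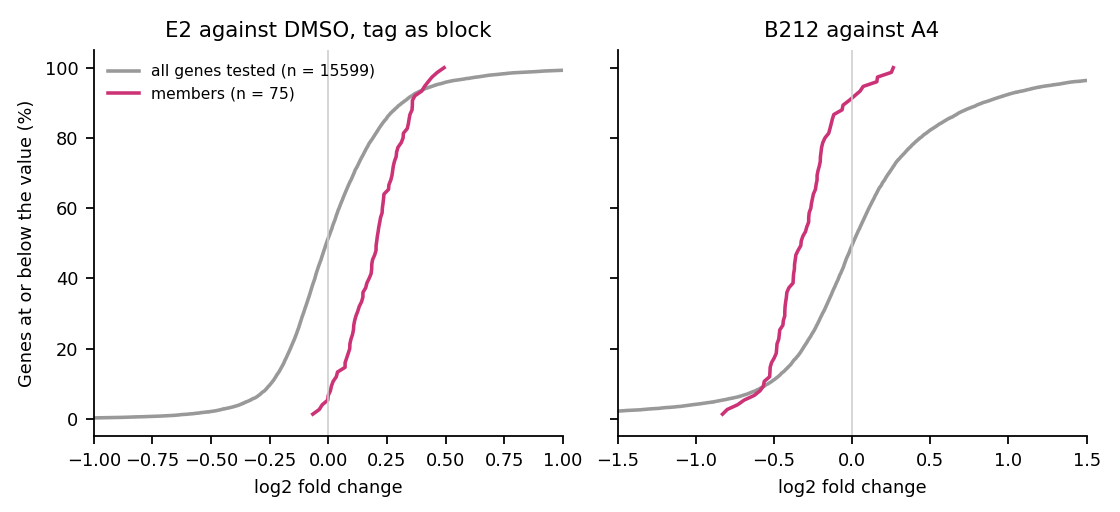
Share of genes at or below each log2 fold change for the 75 members and for all 15599 genes tested, for E2 against DMSO (left) and B212 against A4 (right). The members' curve is shifted to the right for E2, with a median of 0.21, and to the left for B212 against A4, with a median of -0.33, and it spans a narrower range than that of all genes.

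Most members were lower in B212 than in A4. With treatment as a covariate, edgeR's quasi-likelihood test called 59 of the 75 members lower in B212 than in A4, where 25.8% of all genes were lower, and 2 higher, where 25.2% were. The median log2 fold change was -0.33 over the members and 0.0042 over all genes, -0.25 between the DMSO libraries and -0.39 between the E2 libraries. For 53 members both B212 libraries lay below both A4 libraries, against 32.8% of all genes, and for 3 (MRPS5, MRPS14 and MRPS16) both lay above, against 34.7% of all genes. Lower in B212 were 26 of 30 conserved and 16 of 20 mitochondria-specific large subunit members, and 10 of 15 conserved and 6 of 9 mitochondria-specific small subunit members. This holds for these 2 lines only. With 1 library left out, the fit had no treatment term and 1 line kept a single library. Its line difference could not be told apart from the E2 change, so no conclusion is drawn from its calls. The range of the members' medians in those fits is given below.

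MRPS12, a conserved protein of the decoding center, differed most as measured, while MRPL42 did with either length and GC trend removed (log2 -0.99 longest, -0.93 median, against -0.83 and -0.82 for MRPS12). MRPS12 was at 30.8 and 38.8 CPM in A4 (DMSO, E2) and at 17.8 and 21.2 CPM in B212, 1.78-fold higher in A4 (log2 -0.83 ± 0.08 for B212 over A4, SE; edgeR adjusted p = 6.4e-08). MRPL42 was at 133 and 171 CPM in A4 and at 81.3 and 92.2 CPM in B212, 1.74-fold higher in A4 (edgeR adjusted p = 1.4e-08). MRPL12 was 1.66-fold, MRPL1 1.61-fold, MRPL21 1.54-fold and MRPL54 1.504-fold higher in A4, with edgeR adjusted p-values of at most 2.6e-05. For all 6 of these genes both A4 libraries lay above both B212 libraries. MRPS14, a conserved protein at 38.5 and 41.1 CPM in A4 and 46.9 and 48.6 CPM in B212, was 1.20-fold higher in B212 (edgeR adjusted p = 0.0070). MRPS33 was 1.19-fold higher in B212 (edgeR adjusted p = 0.018). Its value was -0.02 (log2) without the A4 DMSO library, in a fit without the treatment term. Of the members whose names do not give their place, MRPS18A (log2 -0.26), MRPS30 (-0.38) and MRPS36 (-0.24) were lower in B212, as was MRPS18C (-0.53).

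**Figure D5:**
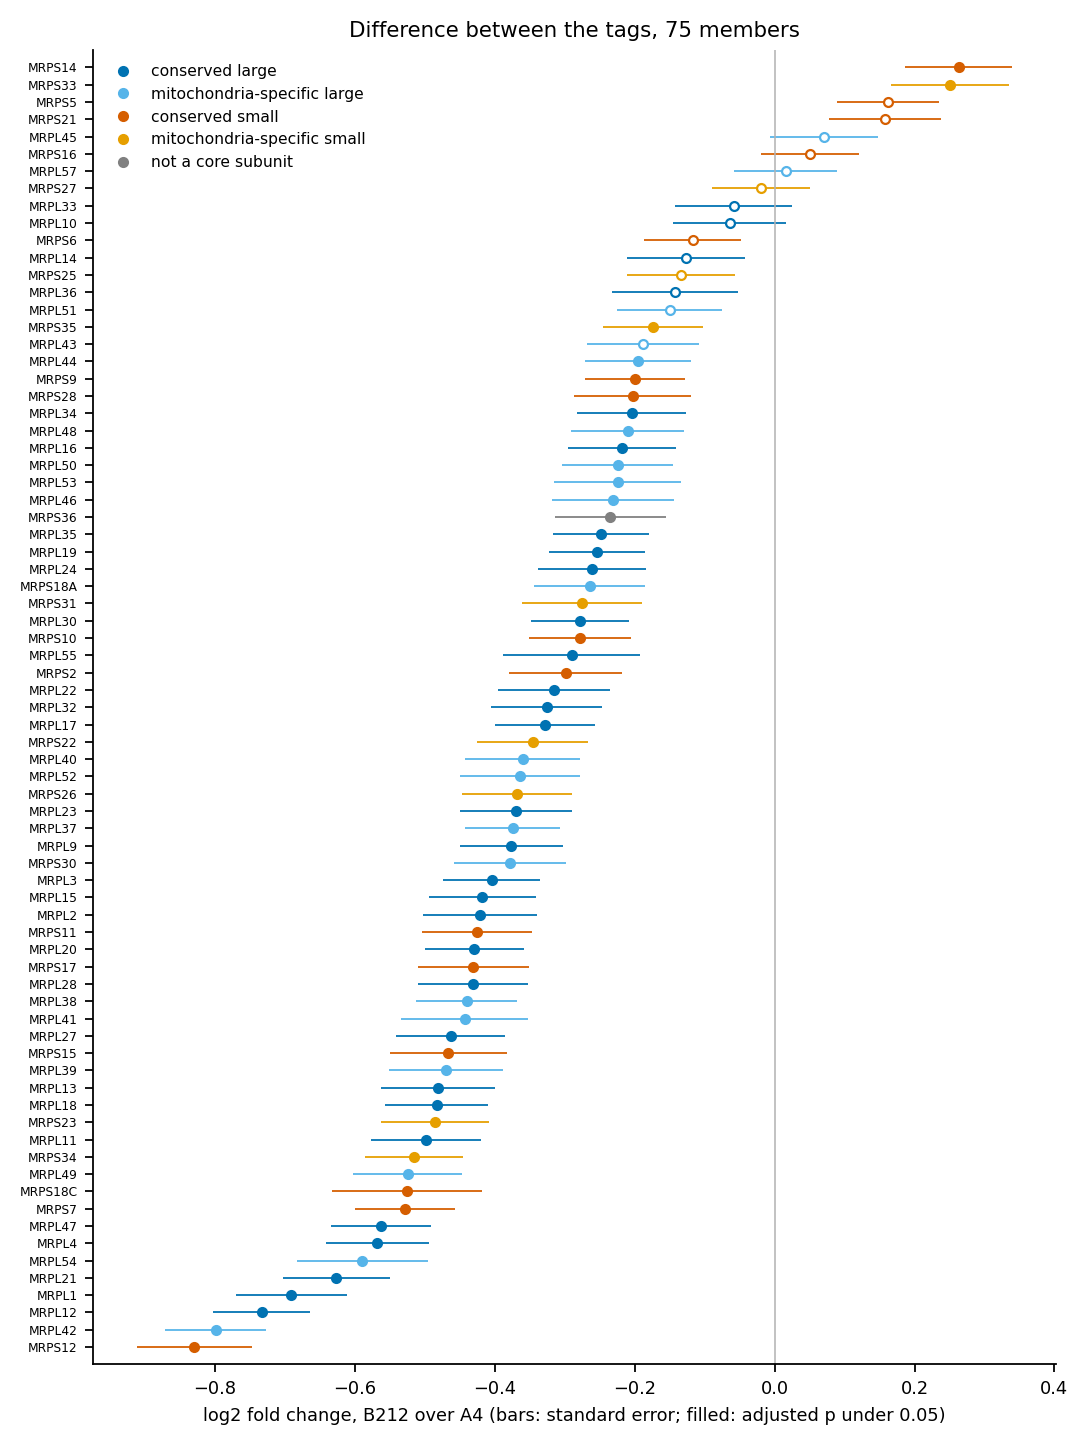
log2 fold change of B212 over A4 for each of the 75 tested members, sorted, with the standard error as a bar; color gives the class and filled points have an adjusted p under 0.05. The values run from -0.83 (MRPS12) to 0.26 (MRPS14), and the 2 filled points above 0 are MRPS14 and MRPS33.

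The promoters of the members were searched for 5 motifs of factors known for nuclear mitochondrial genes or for the estrogen receptor. RefSeq windows (GRCh38.p14) of 300 bases, 250 before the start and 50 from it on, were present for 68 members, with 84 windows, and not for MRPL2, MRPL10, MRPL13, MRPL15, MRPL21, MRPL23, MRPL35, MRPS28 and MRPS36. Both strands were searched. The ETS core CCGGAAG, read by GABP among others, was in 38.1% of member windows and 10.3% of all windows (15.1% of those of tested genes). The YY1 core AAGATGGC was in 27.4% against 2.89% of all windows (4.30%). The NRF1 motif TGCGCA was in 20.2% against 8.24% (11.3%), the E box CACGTG in 10.7% against 7.26% (9.01%), and one arm of the estrogen response element, AGGTCA, in 17.9% against 13.8% (10.7%). The end of the ETS core and the start of the YY1 core share 3 letters, but no member window held such a joined match. Matches were listed by position relative to each start, so a site seen from different starts of a gene was listed for each. Of 43 ETS matches so listed in member windows 25 lay in the 60 bases before the start. The 32 windows of called members held the ETS core in 15, the YY1 core in 15 and the response element arm in 3, and the 50 windows of other tested members in 17, 6 and 12. The NRF1 motif was in 6 of the 32 and 10 of the 50, and the E box in 5 and 4. A match is a description of letters and shows no binding.

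The 60 bases before the start show where the ETS core lies in 4 members called higher with E2 and in 2 with a change near 0. Capitals mark the core on either strand (CTTCCGG where it lies on the other strand), and each run is 5′ to 3′ on the gene's strand. The windows are MRPS23 (chr17:57850045-57850104, minus strand), MRPL33 (chr2:27771659-27771718, plus), MRPL54 (chr19:3762622-3762681, plus), MRPL47 (chr3:179604639-179604698, minus), MRPS26 (chr20:3045992-3046051, plus) and MRPS34 (chr16:1773135-1773194, minus), all GRCh38.p14.
MRPS23: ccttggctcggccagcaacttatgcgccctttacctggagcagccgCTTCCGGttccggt
MRPL33: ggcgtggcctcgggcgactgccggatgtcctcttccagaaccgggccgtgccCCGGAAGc
MRPL54: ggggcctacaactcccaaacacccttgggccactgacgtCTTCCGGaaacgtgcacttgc
MRPL47: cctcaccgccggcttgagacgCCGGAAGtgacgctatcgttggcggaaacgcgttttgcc
MRPS26: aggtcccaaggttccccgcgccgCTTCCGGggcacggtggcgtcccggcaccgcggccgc
MRPS34: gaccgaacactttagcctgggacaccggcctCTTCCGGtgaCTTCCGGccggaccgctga
The core is present on both sides of the comparison: MRPS23 had the largest E2 change of all members (log2 0.49) and MRPS34, with 2 matches, had 0.0091.

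Of the 24 YY1 matches, listed by position relative to each start as above, 16 lay from the start on and 8 before it. The latter were all in windows of the called members MRPL32, MRPL36, MRPL47, MRPL52 and MRPS12, and some may repeat a site. Only the former kind is shown. In 30 bases from position 6 to 35 of 4 members called higher with E2, capitals mark the core, which holds the letters ATG. The windows, all GRCh38.p14, are MRPL50 (chr9:101398584-101398613, minus), MRPL51 (chr12:6493228-6493257, minus), MRPL42 (chr12:93467519-93467548, plus) and MRPL49 (chr11:65122326-65122355, plus).
MRPL50: ggcccgtggatctcatcgAAGATGGCggcg
MRPL51: tgcctgggtaaggcccAAGATGGCtgtctt
MRPL42: aacAAGATGGCgggttcgtggtgagaagcc
MRPL49: aggctggcgtagcaggtaAAGATGGCagct
By gene, 13 of the 24 called members with a window and 6 of the 42 others tested held the YY1 core, and the ETS core was in 13 and 16. Among the factors themselves, ESR1, whose product reads the estrogen response element, fell with E2 in the blocked fit (log2 -0.25, edgeR adjusted p = 0.033). It went from 109.9 to 97.0 CPM in A4 and from 107.4 to 86.5 CPM in B212. With the longest-transcript trend removed its log2 fold change was -0.18 (edgeR adjusted p = 0.10), and with the median one -0.21 (adjusted p = 0.047). YY1, GABPA, NRF1 and MYC did not pass the blocked test, with log2 fold changes of -0.05, -0.03, -0.07 and 0.01.

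Members often share a promoter region with a gene on the other strand. In RefSeq gene order, 14 of 66 tested members with a window (21.2%) had a protein-coding gene starting within 300 bases in the opposite direction, against 1235 of 10685 protein-coding genes tested (11.6%). MRPL32 and PSMA2, a proteasome subunit gene 202 bases away, both rose with E2 (log2 0.31 and 0.29, edgeR adjusted p = 0.019 and 0.015). MRPL49 rose by 0.27 and FAU, a cytosolic ribosomal protein gene 49 bases away, had 0.24 (edgeR adjusted p = 0.062). MITD1, 126 bases from MRPL30, rose by 0.30 (edgeR adjusted p = 0.036), while MRPL30 had 0.17 (adjusted p = 0.12). Of 13 partners tested, PSMA2 and MITD1 were the 2 called with E2, where 6.13% of all genes were called higher and 3.44% lower. The other 11 had log2 fold changes of -0.16 (TMEM63B, beside MRPL14) to 0.24 (FAU), among them HELQ with 0.23 beside MRPS18C and TCP1 with 0.14 beside MRPL18. Between the lines, MRPL18 and TCP1, a chaperonin subunit gene, were both lower in B212 (-0.48 and -0.50, edgeR adjusted p = 1.8e-05 and 8.3e-06), and SARS2, which faces MRPS12, had -0.22 (edgeR adjusted p = 0.069). Strand use in the counting was not given in the sources used here, so reads of genes that overlap head to head cannot be told apart.

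Genes that work with the mitochondrial ribosome were taken from lists written from general knowledge, and their counts stand beside the 6.13% of all genes called higher with E2 in the blocked fit. Among 6 further subunits named outside the MRP series, 2 rose with E2 in the blocked fit: ICT1, a peptidyl-tRNA hydrolase built into the large subunit (log2 0.36, edgeR adjusted p = 0.010), and CHCHD1 (0.32, adjusted p = 0.013). Of 27 assembly factors 3 rose: FASTKD2 (0.31), TFB1M, which methylates the small ribosomal RNA (0.36), and MTERF3 (0.32). Of 17 translation factors 3 rose: SLIRP, which stabilizes mitochondrial messenger RNA (0.46), MTRF1, a release factor (0.44), and GFM2, a recycling factor (0.24). Of 16 genes of mitochondrial DNA expression 5 rose, among them TRMT10C (0.35), TEFM (0.39), TFB2M (0.32) and PNPT1 (0.23). None of these 66 genes was called lower. The medians of the 4 lists were 0.20, 0.04, 0.07 and 0.20, beside 0.21 for the members, and the difference between lists was not tested. With the trend on the longest transcript removed, ICT1 and PTCD3 were called among the further subunits and FASTKD2, MTERF4 and TRUB2 among the assembly factors, and none in the other 2 lists, so that CHCHD1, TFB1M and MTERF3 were no longer called.

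Between the lines, 5 of 6, 16 of 27, 10 of 17 and 12 of 16 genes of these lists were lower in B212, where 25.8% of all genes were. Called higher in B212 were 0, 1, 1 and 1, where 25.2% of all genes were. These were NOA1 (log2 0.31), MTIF3 (0.37) and TFAM (0.65). Of 10 tested regulators of nuclear mitochondrial genes, 3 were lower and 3 higher in B212. With E2 only NRIP1, a corepressor known to be induced by estrogen, was called in the blocked fit (log2 0.40, edgeR adjusted p = 0.0017). With either trend removed, PPARGC1B was called higher too (log2 0.36 in both, edgeR adjusted p = 0.021 longest, 0.0080 median). NRIP1 was at 66.2 and 88.1 CPM in A4 and at 89.1 and 117.3 CPM in B212. PPARGC1A, the coactivator known for driving mitochondrial biogenesis, had 75 and 72 counts in A4 (DMSO, E2) and 731 and 573 in B212, a log2 fold change of 3.11 ± 0.15 (SE) for B212 over A4. Its relatives PPARGC1B (log2 -0.65, edgeR adjusted p = 1.2e-05) and PPRC1 (-0.46, adjusted p = 3.2e-05) and their partner ESRRA (-0.42, adjusted p = 8.0e-04) were lower in B212. GABPA (0.37) and NRIP1 (0.42) were the other 2 higher in B212. The messenger RNAs encoded by mitochondrial DNA were not analysed here.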

How the data were processed

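Per the labels' protocols, a stranded kit with poly(A) selection was used on 500 ng of RNA per library. The authors deposited whole-number read counts for each gene symbol, and the submitters' processing notes name HISAT2, SAMtools, featureCounts, DESeq2 and the hg19 build. Their versions, settings and strand use are not given in the sources used here, so members with pseudogene copies or overlapping neighbours are uncertain. The table has 4 more columns that match no sample, which were left out of every step. No row lacked a gene name.

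Each column was placed by the treatment in its name. The tags A4 and B212 stand in the column names and in no label, and pairing rests on them. Deviations of same-tag libraries from their group means had a Pearson r of 0.871 across genes.

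Genes were kept by filterByExpr (minimum count 10) and scaled by TMM. All 15599 genes were fitted with edgeR 4.0.16 (quasi-likelihood test, Benjamini-Hochberg adjustment, threshold 0.05) without a block, with the tag as a block, and between tags with treatment as a covariate. Differences within a tag used log2 CPM with a prior count of 2, and their 95% intervals cover counting error only. The scripts were tested on simulated counts. Alternatives used DESeq2 1.42.0, limma-voom 3.58.1, other scalings and filters, left-out libraries, and smooth trends (mgcv 1.9.3) on length and GC content of GENCODE 29 transcripts, found for 93.5% of tested genes and all tested members. Promoter windows came from RefSeq, in a build other than that of the counts. R 4.3.3, Python 3.11.15 and matplotlib 3.10.9 were used.

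Members and gene lists were chosen with earlier results of these data known. Members were named by a rule: the 16 with the smallest p in the blocked fit, up to 6 per direction between tags, the 3 highest and 3 lowest per length, members of known special role, and those under the filter. From each other list at most 4 called genes per comparison were named. MRPL46, MRPS26, MRPL28, MRPS34, the remaining called members, the factors of the motifs and the head-to-head partners were added after their values were seen. So were PTCD3, MTERF4, TRUB2, NOA1, MTIF3, TFAM and the 6 regulators that differed between tags.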

Additional observations from a re-analysis of the deposited data

Results flagged for a closer look

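MRPS18A, a paralog of the small subunit protein MRPS18C that sits in the large subunit, moved in opposite directions with E2 in the 2 lines. In A4 its log2 change was 0.08, and B212 had -0.04. The difference of 0.12 was not tested, since each line had 1 library per treatment. The 95% interval for counting error alone was 0.0058 to 0.15 in A4 and -0.12 to 0.04 in B212. The other members with opposite signs were MRPL2, MRPL10, MRPL28, MRPL55, MRPS16, MRPS26 and MRPS34, with differences between A4 and B212 of -0.10 (MRPS16) to 0.20 (MRPL55). Opposite signs were seen for 4645 of all 15599 genes tested.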

How the results depend on the processing

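Counts of called members depended on the pairing and on the scaling. Without a block 0 members were called for E2 and with the replicate block 28. The blocked count was 13 with DESeq2 size factors, 11 with DESeq2 and 8 at an adjusted p under 0.01. It was 6 or 21 with the trend on the longest or the median coding transcript removed. Library sizes only, other filters and limma-voom gave 24 to 30. Apart from the trend fits, the share of all genes called under these settings is not given here. The median of the members without the block was 0.21; it was 0.098 with the longest-transcript trend removed and the replicate block, and -0.0068 to 0.39 when 1 library was left out, lowest without the A4 E2 library, which leaves the lone E2 library to B212. The paired fit could not be run with a library left out, as no residual degree of freedom remains. Of all 15599 genes, 7950 were called between lines with the treatment term and 4456 without it, so calls fell for genes at large too. Calls with 1 library left out mix the line difference with the E2 change, and no conclusion is drawn from them. Between lines 61 members were called, 27 without the treatment term, and 8 to 60 with 1 library left out, where the median ran from -0.44 to -0.17. With the trend removed, the E2 change turned negative for 12 members (longest) or 6 (median), and positive for 2 (median); among the members named by rule these were MRPS14 (-0.087 longest, -0.023 median), MRPS31 (-0.12, -0.023), MRPL30 (-0.025, median), MRPS18A (-0.077, longest) and MRPS36 (-0.023, longest), and in B212 alone for MRPS18A (-0.039). Between lines the sign turned for MRPL33 with library sizes only (0.0089). With 1 library left out and no treatment term, it turned for MRPL33 (-0.36 to 0.24), MRPL50 (-0.45 to 0.0033) and MRPL51 (-0.38 to 0.074). It also turned there for MRPL14 (-0.39 to 0.13) and MRPS33 (-0.020 to 0.52). In those left-out fits the line difference cannot be told apart from the E2 change. The cause was not tested. The low counts of MRPS18B and MRPS24 kept them out of the tests.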

Other observations

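The 2 members under the count filter differed in their surroundings. In RefSeq gene order, all 10 protein-coding neighbours of MRPS18B had at most 3 counts in any library, among them ABCF1, GNL1 and DHX16 with 0 counts in all 4. Around MRPS24 the picture was another: URGCP had 1871 to 2296 counts and COA1 up to 6004, while the read-through gene URGCP-MRPS24 had 0 counts and MRPS24 itself at most 2. Why these rows are near 0 was not tested.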
